A study of Mus musculus with 14 samples.

Results

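Interferon-stimulated genes are the genes that cells switch on when type I, type II or type III interferon binds its receptor. A list of 37 of them was followed through myocardial infarction (MI) of the mouse, out of 14870 named genes tested in the series. The list names antiviral and regulatory genes known for this response. Its rule uses no measured value, but its members were chosen with earlier results of these data known, so the counts below are a description. Of the 37 genes, 35 had a probe on the array that could be named, and all 35 were bright enough to be tested. Mx1 and Mx2, the dynamin-like antiviral GTPases, had no probe that could be named and are not analysed here.

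RNA was taken from the ventricle of 8-week-old male C57BL/6 mice and hybridised to 1-colour Agilent arrays, 1 sample per array. The samples came from the border zone of the infarct 14 days after the left anterior descending artery had been tied off (MI 14 days, 5 arrays), from the border zone 3 days after it (MI 3 days, 5 arrays), and from hearts that had the surgery without the tie (sham, 4 arrays). No transgene or mutation is named for any group, and the time at which sham hearts were taken is not stated. Whether each array stands for 1 animal is not stated outright either, and p-values then measure the spread between these samples. The protocols name both poly-T purification and labelling of 200 ng of total RNA. All values below are levels (log2 signal relative to the 75th percentile of its array) or differences of levels, and a level of 1 probe cannot be set against that of another. The 75th percentile lay between 188.6 and 443 intensity units, arrays of 1 group correlated at 0.979 to 0.992 across probes, and no probe was saturated on the 10 arrays with scanner output. In such whole-tissue samples, fewer cells of a type and less RNA per cell cannot be told apart.

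Type I interferon binds a receptor made of IFNAR1 and IFNAR2, whose kinases JAK1 and TYK2 phosphorylate STAT2, among others. Together with IRF9 it takes part in the complex ISGF3, which binds the interferon-stimulated response element (ISRE) in the promoters of its targets, while interferon-gamma acts mainly through the gamma-activated sequence (GAS). The products sense foreign or misplaced nucleic acid, degrade RNA, modify proteins with the ubiquitin-like ISG15, and hold virus particles at membranes, and in the infarcted heart the response is known from macrophages and other cells that take up debris of dying cells.

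Promoter sequence from RefSeq (GRCm38.p6) was found for 27 of the 37 genes, as 250 bases before and 50 bases after the start of each transcript, and the other 10 genes are not in the table. The ISRE letters searched were GAAA, any 2 bases and GAAA, on either strand, where overlapping matches were counted separately. They occurred in the promoters of 14 of the 27 genes and in 14 of their 31 promoters, against 3.44% of all 32851 promoters of the same length. The GAS letters, TTC, any 3 bases and GAA, occurred in 6 of the 31 promoters, against 8.3% of all promoters. Shown here are 90-base windows before the start for 7 genes with ISRE letters, picked to span the range of responses described below, and for Irf1, whose promoter held only GAS letters. Capitals mark bases that match the ISRE letters, or in the Irf1 window the GAS letters. They match on the strand shown or as their complement on the opposite strand. A GAS match in the Bst2 window stays in lower case where it does not overlap ISRE letters. A match describes the letters and is no evidence of binding.
Isg15, chr4:156200841-156200930, minus strand: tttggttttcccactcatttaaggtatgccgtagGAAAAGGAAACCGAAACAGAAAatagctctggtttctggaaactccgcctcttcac
Oas1a, chr5:120907526-120907615, minus strand: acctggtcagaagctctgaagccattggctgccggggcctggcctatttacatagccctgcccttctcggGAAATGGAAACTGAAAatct
Ifit1, chr19:34640754-34640843, plus strand: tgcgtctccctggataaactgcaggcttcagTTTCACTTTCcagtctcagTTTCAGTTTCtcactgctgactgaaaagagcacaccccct
Ifit3, chr19:34583350-34583439, plus strand: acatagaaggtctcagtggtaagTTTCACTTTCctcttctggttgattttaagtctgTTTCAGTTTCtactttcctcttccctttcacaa
Bst2, chr8:71537550-71537639, minus strand: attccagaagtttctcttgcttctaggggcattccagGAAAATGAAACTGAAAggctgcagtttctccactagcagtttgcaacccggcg
Gbp2, chr3:142620564-142620653, plus strand: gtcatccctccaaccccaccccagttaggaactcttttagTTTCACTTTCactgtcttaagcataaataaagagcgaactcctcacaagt
Rsad2, chr12:26456523-26456612, minus strand: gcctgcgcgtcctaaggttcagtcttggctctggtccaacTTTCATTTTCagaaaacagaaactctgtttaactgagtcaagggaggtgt
Irf1, chr11:53769883-53769972, plus strand: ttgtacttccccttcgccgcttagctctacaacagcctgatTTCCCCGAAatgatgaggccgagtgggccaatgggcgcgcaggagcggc
In the Isg15 window 3 overlapping matches stand in a row, in Oas1a, Ifit1, Ifit3 and Bst2 there are 2, and in Gbp2 and Rsad2 there is 1. Of the 14 genes with ISRE letters, 12 were higher at MI 3 days than in sham hearts (median change 1.16), and of the 13 without them 10 were higher (median 0.92). Rsad2 and Gbp2 are the genes with the letters that were not. At MI 14 days 10 of the 14 and 6 of the 13 were higher than in sham hearts, with close medians of 0.42 and 0.37. Of all named genes tested, 29.8% were higher at MI 3 days and 15.9% at MI 14 days. Whether the genes with and without the letters differ was not tested.

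The comparison of MI 3 days with sham asks how the response stands in the first days after infarction. Of the 35 genes, 29 were higher at MI 3 days and none was lower, where 29.8% of all named genes tested were higher and 40.5% lower. Of the genes above background in all groups, Zbp1 (5.68-fold), Isg15 (4.93-fold), Dhx58 and Oas1a (4.62-fold each) and Oasl1 (4.41-fold) rose most. The other 6, Trim25, Irf1, Gbp2, Parp14, Rsad2 and Ifi35, were not past the threshold, an adjusted p under 0.05 over all tested probes (limma, Benjamini-Hochberg). The fitted change was positive for all 35 genes, with a median of 1.01 and a range from 0.02 to 2.99, while the median over all named genes was -0.15. At least a 2-fold increase was fitted for 18 of the 29, a count with no share of all named genes to set beside it. For 27 of the 35 genes every MI 3 days array lay above every sham array, which held for 27.1% of all named genes, and for none did every one lie below, against 36.1%.

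The comparison of MI 14 days with sham asks what is left when the scar forms. Of the 35 genes, 21 were higher at MI 14 days and none was lower, where 15.9% of all named genes were higher and 24.2% lower. By the brightest tested probe of each gene, none of the 21 reached a 2-fold increase, and Isg15 came nearest with 0.998 on the log2 scale (1.997-fold). A second, dimmer probe of Herc6 did pass it, with 1.06 ± 0.24 (adjusted p = 0.00398). The median change was 0.38, against -0.08 over all named genes, and for 13 of the 35 genes all MI 14 days arrays lay above all sham arrays, against 13.2% of all named genes. For none did all lie below, against 21.9%. The count depends on the arrays used. Without sham replicate 2 it was 13, the calls of Ddx58, Oasl1, Ifit1, Herc6, Irf7, Gbp2, Ifitm3 and Parp9 being lost. On the 10 arrays with scanner output, with slide as a block, it was 4 (Isg15, Stat2, Ifitm2 and Xaf1), against 16 on those 10 arrays without the block. Taken singly, the call of Herc6 ended under 19 of 26 alternatives, those of Ifit1 and Gbp2 under 11 each, and those of Ddx58, Oasl1 and Ifitm3 under 9 each. Both comparisons use the same sham arrays, so that their values are set side by side and not correlated.

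Between the MI groups, 24 genes were lower at MI 14 days than at MI 3 days and 1, Gbp2, was higher, where 26.9% of all named genes were lower and 33.6% higher. The median change was -0.42, against 0.08 over all named genes. These values use the brightest tested probe of each gene. A second probe of Xaf1 was called higher (0.56 ± 0.23, adjusted p = 0.0490), and those of Ddx58, Herc6 and Dtx3l were not past the threshold. Second probes of Oas1a, Isg15 and Zbp1 were called lower too. The arrays did not overlap for 18 genes in the lower direction, against 22.3% of all named genes, and for Gbp2 in the higher direction, against 23.8%. A 2-fold or larger difference was fitted for 9 genes, again with no share of all named genes beside it. With the slide as a block 12 genes were lower and none higher. Counted over the comparisons with sham, 20 genes were higher at both times, 9 at MI 3 days and not at MI 14 days, Gbp2 at MI 14 days and not at MI 3 days, and 5 (Trim25, Irf1, Parp14, Rsad2 and Ifi35) at neither. Of the 20, 17 were lower at MI 14 days than at MI 3 days, and Ifit3, Stat2 and Parp9 were not past the threshold between the times. These combined counts were not set against all named genes, and the comparisons share arrays, so whether they are particular to the list was not tested.

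**Figure D1:**
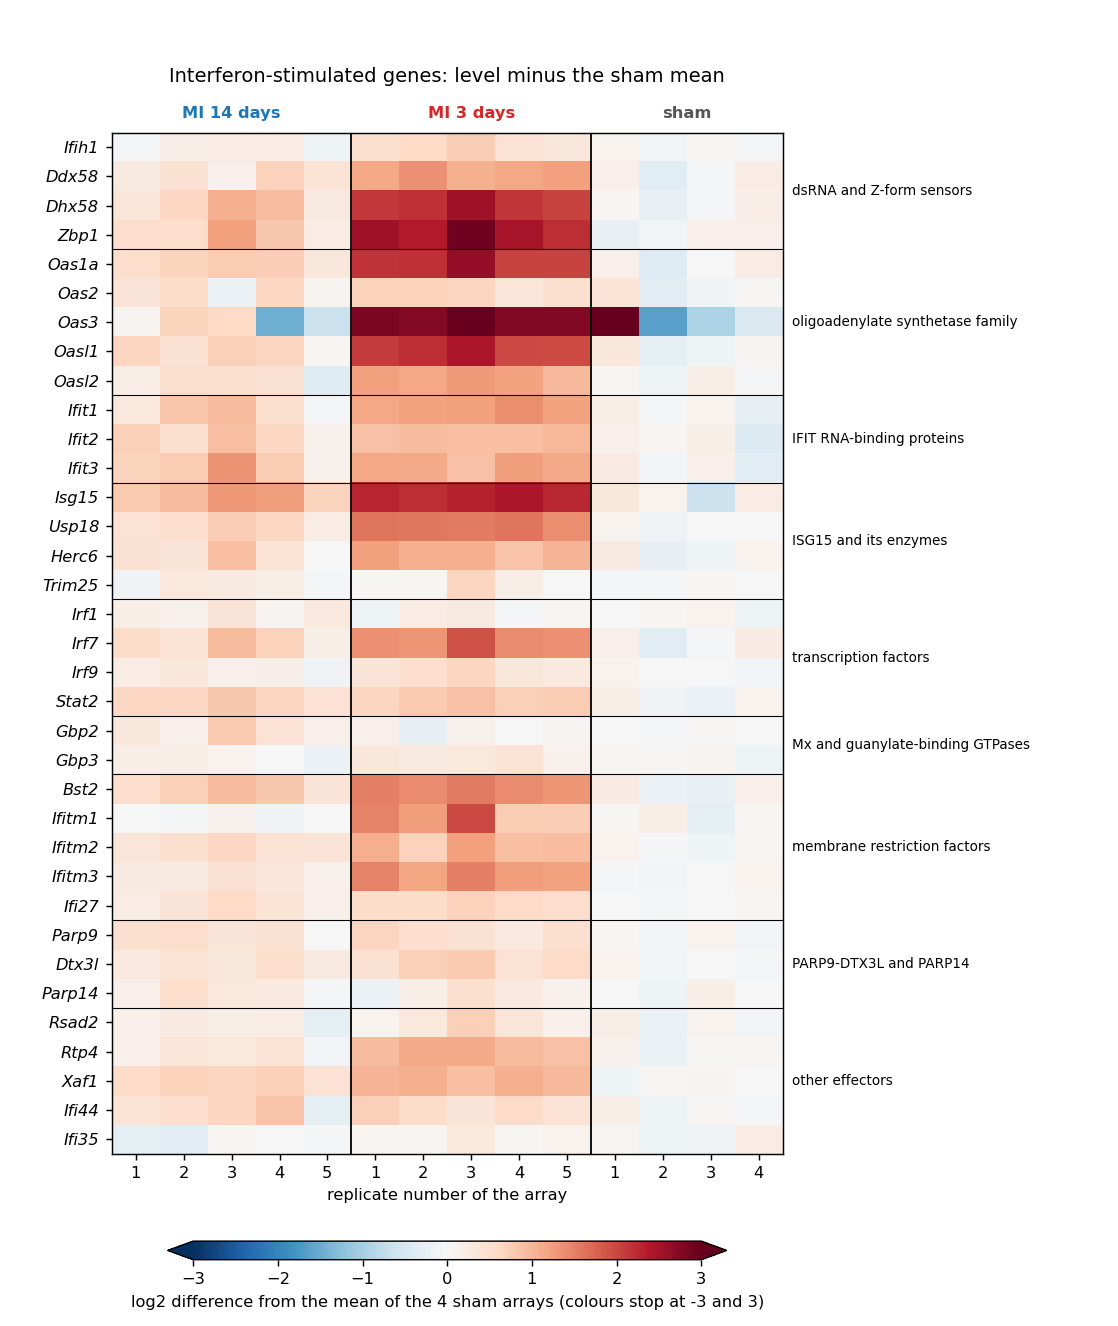
Level of each of the 35 genes (rows, grouped by role) on each of the 14 arrays (columns), as the log2 difference from the mean of the 4 sham arrays. The MI 3 days arrays carry the darkest red for Oas3, Zbp1, Isg15, Oas1a, Dhx58 and Oasl1, the MI 14 days arrays are paler, and Oas3 in sham replicate 1 stands as high as at MI 3 days.

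**Figure D2:**
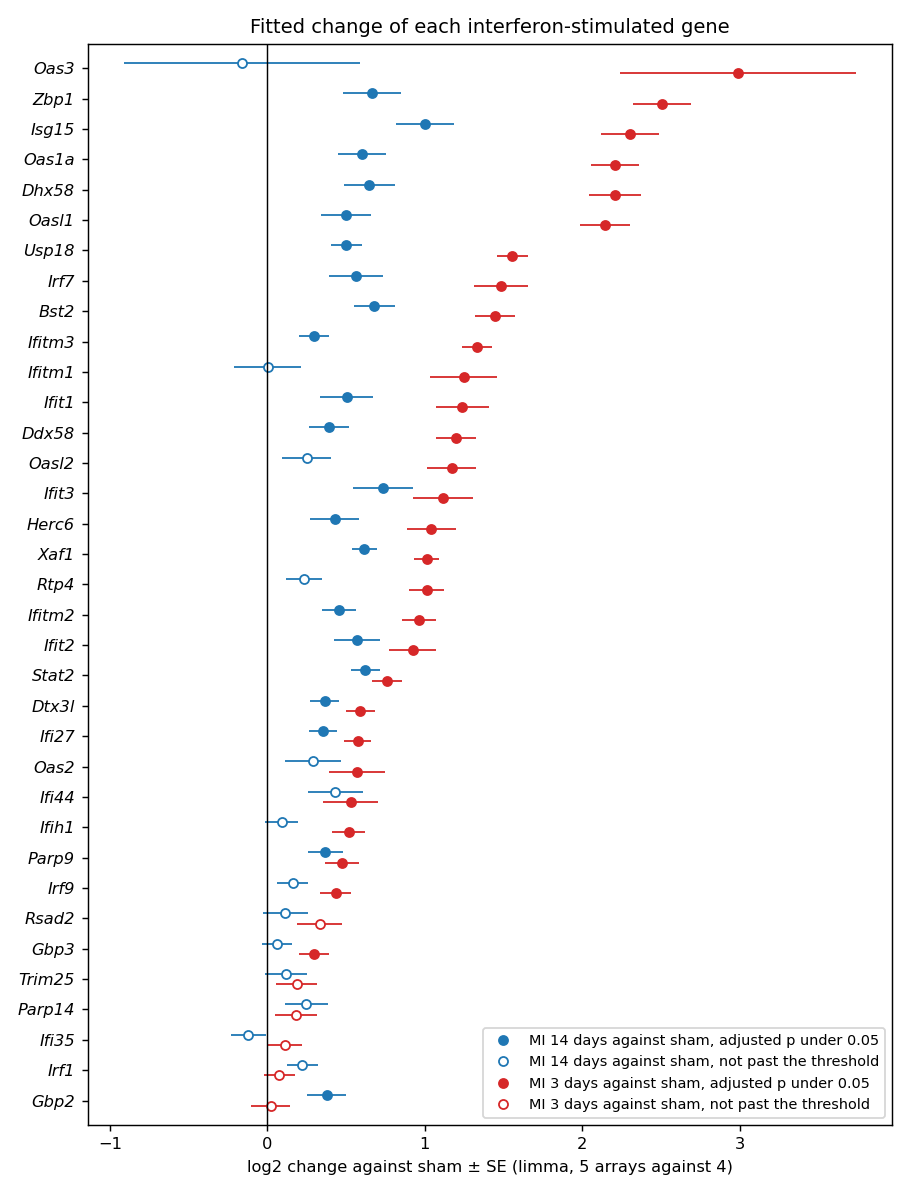
Fitted log2 change of each gene against sham with its SE, for MI 14 days (blue) and MI 3 days (red), filled where the adjusted p is under 0.05. The changes at MI 3 days run from 0.02 (Gbp2) to 2.99 (Oas3), and those at MI 14 days from -0.16 (Oas3) to 0.998 (Isg15).

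The sensors of double-stranded RNA and of Z-form nucleic acid were all 4 higher at MI 3 days, and 3 of the 4 at MI 14 days. Zbp1 binds Z-form DNA and RNA and can start necroptosis. Its levels were -0.67, -0.67, 0.02, -0.38 and -0.98 at MI 14 days, 1.34, 1.18, 1.72, 1.27 and 1.02 at MI 3 days, and -1.42, -1.28, -1.05 and -1.06 in sham hearts. The 3 groups did not overlap, with MI 3 days on top and sham at the bottom. The change was 0.66 ± 0.18 at MI 14 days (adjusted p = 0.0139) and 2.51 ± 0.18 at MI 3 days (adjusted p = 6.61e-08). Dhx58 encodes LGP2, a regulator of the other RIG-I-like sensors. It had levels of -1.98, -1.72, -1.28, -1.41 and -2.06 at MI 14 days, -0.22, -0.13, 0.21, -0.19 and -0.31 at MI 3 days, and -2.28, -2.56, -2.38 and -2.13 in sham hearts. Again the groups kept apart, and the change was 0.65 ± 0.16 at MI 14 days and 2.21 ± 0.16 at MI 3 days. The difference between the MI groups was -1.84 ± 0.17 for Zbp1 and -1.56 ± 0.16 for Dhx58, both with an adjusted p of at most 2.20e-06.

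Ddx58 encodes RIG-I, the sensor of short double-stranded RNA ends. It had 0.98, 1.18, 0.86, 1.41 and 1.12 at MI 14 days, 1.88, 2.09, 1.78, 1.88 and 1.95 at MI 3 days, and 0.87, 0.41, 0.65 and 0.93 in sham hearts. All MI 3 days arrays lay above both other groups, which overlapped each other. Its change was 0.39 ± 0.13 at MI 14 days (adjusted p = 0.0296) and 1.20 ± 0.13 at MI 3 days. A second probe of Ddx58 gave 0.50 ± 0.13 at MI 14 days and 0.22 ± 0.13 at MI 3 days (adjusted p = 0.143), so the call at 3 days rests on the brighter probe. From MI 3 days to MI 14 days the brighter probe gave -0.81 ± 0.12, and the second 0.28 ± 0.12 (adjusted p = 0.0630). Ifih1 encodes MDA5, which senses long double-stranded RNA. Its levels ran from 0.49 to 0.86 at MI 14 days, 0.96 to 1.36 at MI 3 days and 0.53 to 0.73 in sham hearts. It was 1.43-fold higher at MI 3 days (0.52 ± 0.11), while MI 14 days and sham overlapped (0.09 ± 0.11, adjusted p = 0.542). The second probe of Zbp1 gave 0.97 ± 0.24 at MI 14 days and 3.14 ± 0.24 at MI 3 days.

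In the oligoadenylate synthetase family, whose enzymes make the short oligoadenylates that activate RNase L, all 5 genes were higher at MI 3 days and 2 at MI 14 days. Oas1a had levels of 2.06, 2.20, 2.29, 2.27 and 1.87 at MI 14 days, 3.71, 3.72, 4.17, 3.57 and 3.56 at MI 3 days, and 1.70, 1.15, 1.55 and 1.76 in sham hearts. Every MI 3 days array lay above every MI 14 days array, and these above every sham array. The change was 0.60 ± 0.15 at MI 14 days (adjusted p = 0.00799) and 2.21 ± 0.15 at MI 3 days (adjusted p = 3.69e-08), and the second probe of the gene gave 0.58 ± 0.15 and 2.27 ± 0.15 in the same order. Oas1a has close copies in the mouse genome, so its probes may share signal with Oas1g. Oasl1, which in the mouse has no synthetase activity and restrains the translation of Irf7, had levels of 0.92, 0.73, 0.997, 0.93 and 0.33 at MI 14 days, 2.37, 2.50, 2.73, 2.27 and 2.24 at MI 3 days, and 0.62, 0.00, 0.14 and 0.36 in sham hearts. The MI 3 days arrays stood apart from both other groups, and MI 14 days overlapped sham on replicate 5 alone. The change was 0.50 ± 0.16 at MI 14 days (adjusted p = 0.0273) and 2.14 ± 0.16 at MI 3 days.

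Oas3, the synthetase for long double-stranded RNA, was dim. It was well above background on none of 4 scanned arrays at MI 14 days, on both of 2 at MI 3 days and on 1 of 4 in sham. Its levels were -4.76, -4.17, -4.25, -6.31 and -5.48 at MI 14 days, -2.01, -2.08, -1.03, -2.06 and -2.07 at MI 3 days, and -1.82, -6.48, -5.78 and -5.26 in sham hearts. Sham replicate 1 was as high as the MI 3 days arrays and the other sham arrays were far lower. The fitted change at MI 3 days was imprecise, at 2.99 ± 0.75 (adjusted p = 0.00310). It was 3.99 without sham replicate 1, but 1.42 with 16 units added before the log and 0.449 with normexp. The call ended on the 10 scanner arrays (2.77, adjusted p = 0.0538) and there with slide as a block (3.33, adjusted p = 0.0556). At MI 14 days Oas3 was at least 4.90-fold lower than at MI 3 days (adjusted p = 0.00187). Oasl2, a family member with ubiquitin-like domains, ran from 1.10 to 1.94 at MI 14 days, 2.43 to 2.73 at MI 3 days and 1.29 to 1.62 in sham hearts, with changes of 0.25 ± 0.15 at MI 14 days (adjusted p = 0.238) and 1.17 ± 0.15 at MI 3 days. For Oas2 the change was 0.29 ± 0.18 at MI 14 days (adjusted p = 0.231) and 0.57 ± 0.18 at MI 3 days (adjusted p = 0.0114), and its groups overlapped.

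The IFIT genes encode tetratricopeptide proteins that bind foreign RNA ends, and all 3 were higher at both times. Ifit1 had levels of -0.23, 0.30, 0.41, -0.05 and -0.56 at MI 14 days, 0.62, 0.67, 0.70, 0.88 and 0.67 at MI 3 days, and -0.36, -0.58, -0.42 and -0.77 in sham hearts. The MI 3 days arrays lay close to each other and above all others, while MI 14 days spread widely and replicate 5 fell among the sham arrays. The change was 0.51 ± 0.17 at MI 14 days (adjusted p = 0.0337) and 1.24 ± 0.17 at MI 3 days. For Ifit3 the levels were 1.81, 1.90, 2.48, 1.90 and 1.28 at MI 14 days, 2.30, 2.28, 2.02, 2.40 and 2.29 at MI 3 days, and 1.39, 1.06, 1.30 and 0.82 in sham hearts. At MI 14 days replicate 3 was the highest of all arrays and replicate 5 lay within the sham range. Its change was 0.73 ± 0.19 at MI 14 days and 1.11 ± 0.19 at MI 3 days, and the difference between these groups, -0.38 ± 0.18, was not past the threshold (adjusted p = 0.0875). Ifit3 has a near-identical copy, Ifit3b, that may share its signal. Ifit2 ran from -0.92 to -0.15 at MI 14 days, -0.17 to -0.06 at MI 3 days and -1.45 to -0.87 in sham hearts, with changes of 0.57 ± 0.15 at MI 14 days and 0.92 ± 0.15 at MI 3 days.

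ISG15 is a ubiquitin-like protein that is joined to other proteins and also secreted. Isg15 levels were 3.20, 3.37, 3.72, 3.68 and 3.09 at MI 14 days, 4.70, 4.64, 4.72, 4.83 and 4.69 at MI 3 days, and 2.75, 2.52, 1.76 and 2.62 in sham hearts. The 5 MI 3 days arrays lay close to each other, above all MI 14 days arrays, and these above all sham arrays. The change was 0.998 ± 0.18 at MI 14 days (adjusted p = 0.00132) and 2.30 ± 0.18 at MI 3 days (adjusted p = 1.43e-07). By the brightest tested probe of each gene, it was the largest of the list at MI 14 days. A second probe gave 0.96 ± 0.23 at MI 14 days and 2.45 ± 0.23 at MI 3 days. Usp18, which removes ISG15 from proteins and damps signalling at IFNAR2, had levels of 0.02, 0.08, 0.33, 0.20 and -0.20 at MI 14 days, 1.19, 1.17, 1.14, 1.20 and 0.99 at MI 3 days, and -0.31, -0.52, -0.41 and -0.44 in sham hearts. No groups overlapped, and the change was 0.50 ± 0.10 at MI 14 days and 1.56 ± 0.10 at MI 3 days. Herc6, the main ISG15 ligase of the mouse, had changes of 0.43 ± 0.16 at MI 14 days (adjusted p = 0.0498, a call that most alternatives ended) and 1.04 ± 0.16 at MI 3 days. Its second probe gave 1.06 ± 0.24 (adjusted p = 0.00398) and 1.46 ± 0.24 in that order. Trim25, a ubiquitin ligase that acts on RIG-I, was not past the threshold at either time (0.12 at MI 14 days and 0.19 at MI 3 days), although MI 3 days replicate 3 lay at 4.67 against 4.01 to 4.18 on the other arrays of its group.

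Of the 4 transcription factors, 3 were higher at MI 3 days and 2 at MI 14 days. Irf7, the factor that amplifies type I interferon production, had levels of -0.55, -0.69, -0.16, -0.41 and -0.93 at MI 14 days, 0.27, 0.21, 0.81, 0.31 and 0.27 at MI 3 days, and -0.95, -1.44, -1.17 and -0.88 in sham hearts. The MI 3 days arrays lay above all others, and MI 14 days touched the sham range through replicate 5. The change was 0.56 ± 0.17 at MI 14 days (adjusted p = 0.0213) and 1.48 ± 0.17 at MI 3 days (adjusted p = 3.80e-06). Stat2 had levels of 1.83, 1.83, 2.01, 1.86 and 1.65 at MI 14 days, 1.86, 1.99, 2.10, 1.93 and 1.97 at MI 3 days, and 1.40, 1.10, 1.04 and 1.31 in sham hearts. Both MI groups lay above all sham arrays and overlapped each other. The change was 0.62 ± 0.10 at MI 14 days (adjusted p = 0.000405) and 0.76 ± 0.10 at MI 3 days, with -0.13 ± 0.09 between the times (adjusted p = 0.220). Irf9, a partner of STAT2 in ISGF3, was 1.35-fold higher at MI 3 days (0.43 ± 0.10) and had 0.16 ± 0.10 at MI 14 days (adjusted p = 0.241). Irf1, a target of interferon-gamma through its GAS, had levels of 2.62, 2.55, 2.81, 2.51 and 2.71 at MI 14 days, 2.29, 2.63, 2.68, 2.39 and 2.48 at MI 3 days, and 2.42, 2.47, 2.52 and 2.26 in sham hearts. All 3 groups overlapped, with changes of 0.22 ± 0.10 at MI 14 days (adjusted p = 0.105) and 0.08 ± 0.10 at MI 3 days (adjusted p = 0.516).

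**Figure D3:**
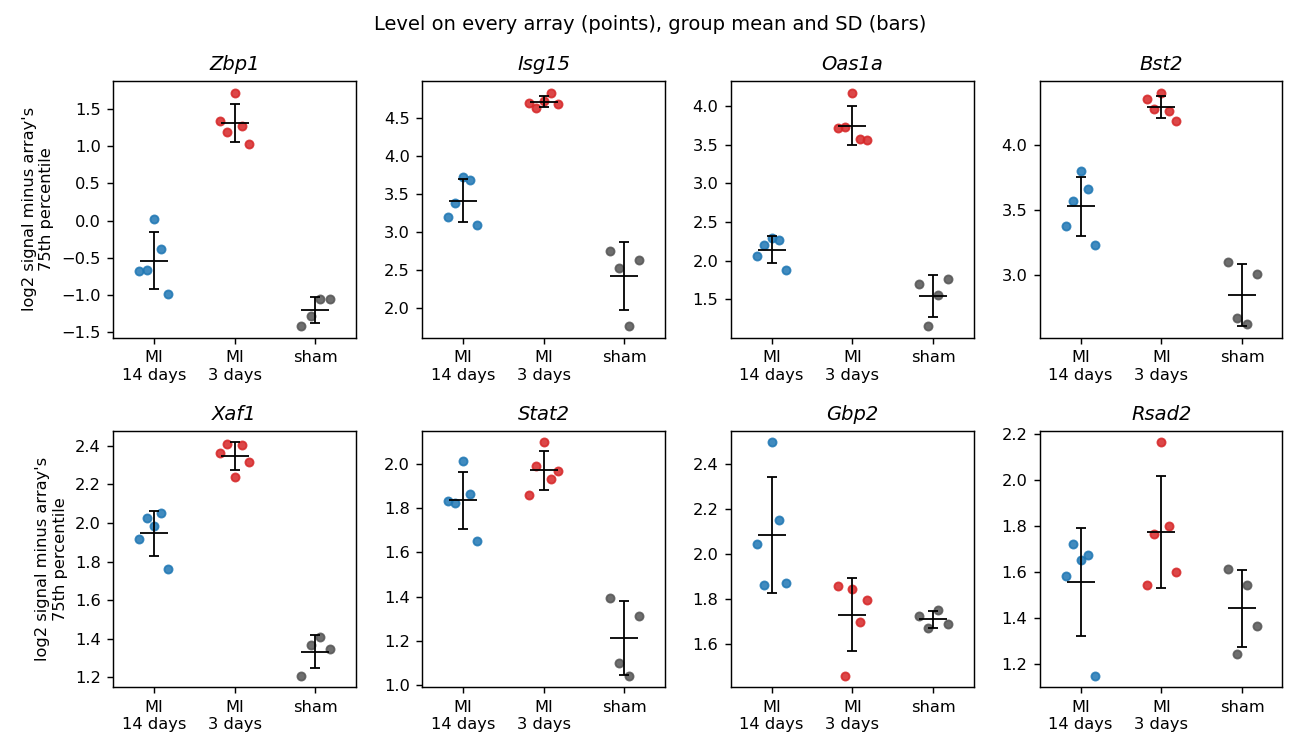
Levels of 8 genes on every array (points, log2 signal relative to the 75th percentile of its array) with group means and SD, MI 14 days left, MI 3 days in the middle and sham right, each panel on its own axis. Zbp1, Isg15, Oas1a, Bst2 and Xaf1 show 3 separate groups, Stat2 is alike in its spread at both MI times, Gbp2 is highest at MI 14 days, and Rsad2 overlaps throughout.

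The guanylate-binding proteins are GTPases that attack the vacuoles of intracellular microbes and respond strongly to interferon-gamma. Gbp2 had levels of 2.04, 1.86, 2.50, 2.15 and 1.87 at MI 14 days, 1.86, 1.46, 1.84, 1.70 and 1.80 at MI 3 days, and 1.72, 1.67, 1.75 and 1.69 in sham hearts. Its MI 14 days arrays all lay above the other arrays, though the nearest arrays of the MI groups stood at 1.863 and 1.857, while MI 3 days and sham overlapped. The change was 0.38 ± 0.13 at MI 14 days against sham (adjusted p = 0.0340), 0.02 ± 0.13 at MI 3 days against sham (adjusted p = 0.888) and 0.35 ± 0.12 at MI 14 days against MI 3 days (adjusted p = 0.0204). Replicate 3 was the highest of the MI 14 days arrays, and the call against sham was lost when any 1 sham array was left out. Gbp3 went the other way in time: it ran from 1.34 to 1.71 at MI 14 days, 1.64 to 1.95 at MI 3 days and 1.35 to 1.58 in sham hearts, with changes of 0.06 ± 0.10 at MI 14 days and 0.30 ± 0.10 at MI 3 days (adjusted p = 0.0134).

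Among the membrane proteins of the response, all 5 were higher at MI 3 days and 4 at MI 14 days. Bst2 encodes tetherin, which holds budding virus at the cell surface. Its levels were 3.38, 3.57, 3.81, 3.67 and 3.24 at MI 14 days, 4.35, 4.28, 4.40, 4.26 and 4.19 at MI 3 days, and 3.10, 2.67, 2.62 and 3.01 in sham hearts. The 3 groups did not overlap, and the change was 0.68 ± 0.13 at MI 14 days (adjusted p = 0.00155) and 1.45 ± 0.13 at MI 3 days (adjusted p = 3.72e-07). The IFITM proteins sit in endosomal and plasma membranes and hinder virus fusion. Ifitm3 had levels of 4.89, 4.90, 5.08, 5.00 and 4.76 at MI 14 days, 6.12, 5.81, 6.15, 5.89 and 5.84 at MI 3 days, and 4.60, 4.56, 4.64 and 4.73 in sham hearts. Its groups kept apart, with 0.30 ± 0.10 at MI 14 days (adjusted p = 0.0296) and 1.33 ± 0.10 at MI 3 days.

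Ifitm1 behaved otherwise, with levels of 0.34, 0.28, 0.45, 0.22 and 0.34 at MI 14 days, 1.81, 1.58, 2.31, 1.08 and 1.06 at MI 3 days, and 0.36, 0.53, 0.02 and 0.38 in sham hearts. It was higher by 1.25 ± 0.21 at MI 3 days, where its arrays spread more widely than those of its relatives, and MI 14 days lay within the sham range (0.00 ± 0.21, adjusted p = 0.995). Ifitm2 ran from 3.76 to 4.03 at MI 14 days, 4.08 to 4.63 at MI 3 days and 3.27 to 3.51 in sham hearts, with no overlap between any groups. The change of Ifitm2 was 0.46 ± 0.11 at MI 14 days and 0.96 ± 0.11 at MI 3 days. Ifi27, a small hydrophobic protein of mitochondrial and nuclear membranes, ran from 4.77 to 5.21 at MI 14 days, 5.15 to 5.30 at MI 3 days and 4.58 to 4.67 in sham hearts. Sham arrays lay close to each other and below both MI groups, and the change was 0.35 ± 0.09 at MI 14 days and 0.57 ± 0.09 at MI 3 days.

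PARP9 and DTX3L form a ubiquitin ligase complex that enhances STAT signalling, and both genes were higher at both times. Parp9 ran from 0.94 to 1.46 at MI 14 days, 1.23 to 1.57 at MI 3 days and 0.85 to 1.04 in sham hearts, with changes of 0.37 ± 0.11 at MI 14 days and 0.47 ± 0.11 at MI 3 days. Dtx3l lay at 0.68 to 0.95 at MI 14 days, 0.85 to 1.19 at MI 3 days and 0.33 to 0.53 in sham hearts, and the MI groups both cleared the sham arrays. Its change was 0.37 ± 0.09 at MI 14 days and 0.59 ± 0.09 at MI 3 days, but a second probe gave 0.03 ± 0.15 and 0.11 ± 0.15 in that order, neither past the threshold. Parp14, a mono-ADP-ribosyltransferase, overlapped between all groups, with 0.25 ± 0.13 at MI 14 days (adjusted p = 0.178) and 0.18 ± 0.13 at MI 3 days (adjusted p = 0.248).

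The remaining 5 effectors differed most among themselves, 3 being higher at MI 3 days and 1 at MI 14 days. Xaf1, a pro-apoptotic antagonist of XIAP, had levels of 1.92, 2.02, 1.99, 2.05 and 1.76 at MI 14 days, 2.36, 2.41, 2.24, 2.41 and 2.31 at MI 3 days, and 1.21, 1.37, 1.41 and 1.35 in sham hearts. Its 3 groups did not overlap, and the change was 0.61 ± 0.08 at MI 14 days (adjusted p = 0.000122) and 1.01 ± 0.08 at MI 3 days (adjusted p = 1.16e-07). A second, dimmer probe of Xaf1 went the other way, with -0.34 ± 0.24 at MI 14 days (adjusted p = 0.309) and -0.90 ± 0.24 at MI 3 days (adjusted p = 0.00468). From MI 3 days to MI 14 days the brighter probe gave -0.40 ± 0.08 and the second 0.56 ± 0.23 (adjusted p = 0.0490). The direction thus holds for 1 of its 2 probes. Rtp4, a receptor-transporter protein with antiviral activity, ran from 2.33 to 2.85 at MI 14 days, 3.31 to 3.57 at MI 3 days and 2.21 to 2.56 in sham hearts. It was higher by 1.01 ± 0.11 at MI 3 days, with 0.23 ± 0.11 at MI 14 days (adjusted p = 0.132).

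Rsad2 encodes viperin, a radical-SAM enzyme that makes a chain-terminating nucleotide. Its levels were 1.58, 1.72, 1.65, 1.68 and 1.15 at MI 14 days, 1.54, 1.77, 2.16, 1.80 and 1.60 at MI 3 days, and 1.61, 1.24, 1.54 and 1.37 in sham hearts. All 3 groups overlapped, and neither the change at MI 14 days (0.12 ± 0.14, adjusted p = 0.582) nor that at MI 3 days (0.33 ± 0.14, adjusted p = 0.0566) was past the threshold, although the change at MI 3 days passed it under 10 of 26 alternatives. Ifi44, a cytoplasmic protein of unsettled role, had 0.43 ± 0.18 at MI 14 days (adjusted p = 0.0769) and 0.53 ± 0.18 at MI 3 days (adjusted p = 0.0170). Ifi35, a partner of NMI, had -0.12 ± 0.11 at MI 14 days and 0.11 ± 0.11 at MI 3 days, and its arrays overlapped in every comparison.

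Within a group, 1 array was often the extreme for the genes of the list. MI 14 days replicate 5 had the lowest level of its group for 26 of the 35 genes, against 21.5% of all named genes, and replicate 3 the highest for 21, against 28.1%. MI 3 days replicate 3 was the highest of its group for 22 genes, against 24.9% of all named genes. Of the sham arrays, replicate 2 was the lowest for 21 genes, against 29.5%, and replicate 1 the highest for 17, against 27.7%. The median level over the 35 genes was 1.28 to 1.72 on MI 14 days arrays, 1.86 to 2.10 at MI 3 days and 1.15 to 1.41 in sham, with replicate 5 the lowest at MI 14 days and replicate 2 the lowest in sham. Few arrays of both groups share a slide, and these arrays are also part of the fits above, so the values within slides are a description. MI 14 days exceeded sham for 30 of the 35 genes on slide 1 (1 array against 2, median difference 0.34) and for 32 on slide 3 (3 against 1, median 0.377). MI 3 days exceeded sham for 33 genes on slide 2 (median 0.991) and on slide 3 (median 0.862), with 1 array against 1 on each. MI 14 days lay below MI 3 days for 31 genes on slide 3 (3 arrays against 1, median -0.443). No share or median of all named genes was taken within slides to set beside these values, so whether they are particular to the list was not tested.

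The genes that make interferon itself were near the limit of the array. Of 21 interferon genes 16 had a named probe and 9 passed the filter on dim probes. Ifnb1, Ifng, Ifne and Ifna4 were well above background on none of the 10 arrays with scanner output. None of the 9 was higher in either MI group than in sham hearts. Of all named genes 29.8% were higher and 40.5% lower at MI 3 days, and 15.9% higher at MI 14 days. At MI 3 days Ifna16 (-1.86 ± 0.39), Ifna7 (-1.04 ± 0.34), Ifna12 (-0.82 ± 0.20) and Ifna13 (-0.66 ± 0.23) were lower, while Ifna1, Ifna5, Ifna14, Ifnab and Ifnl3 were not past the threshold. The Ifna genes are near-identical copies and these probes are dim, with Ifna7, Ifna13 and Ifna16 above background on only 1 of 2 scanned arrays at MI 3 days.

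The receptor genes split. Ifnar1 was higher by 0.27 ± 0.09 at MI 14 days and 0.78 ± 0.09 at MI 3 days, and Ifnar2, Jak1 and Jak2 by 0.25, 0.30 and 0.27 at MI 3 days. In the other direction went Ifnlr1 and Il10rb, the chains of the type III receptor (-1.42 ± 0.12 and -0.76 ± 0.11 at MI 3 days), and Ifngr2, the signalling chain of the type II receptor (-0.34 ± 0.10 at MI 14 days and -0.78 ± 0.10 at MI 3 days). Ifngr1 and Tyk2 were not past the threshold. Of the factors outside the list, Irf5 (0.62 ± 0.20 at MI 14 days and 2.24 ± 0.20 at MI 3 days) and Irf8 (0.47 ± 0.13 and 1.68 ± 0.13 in that order), both of myeloid cells, were the 2 with the largest increases, Batf2 was higher by 0.39 at MI 3 days, and Irf4 (-0.71) and Irf2bp2 (-0.38) were lower.

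**Figure D4:**
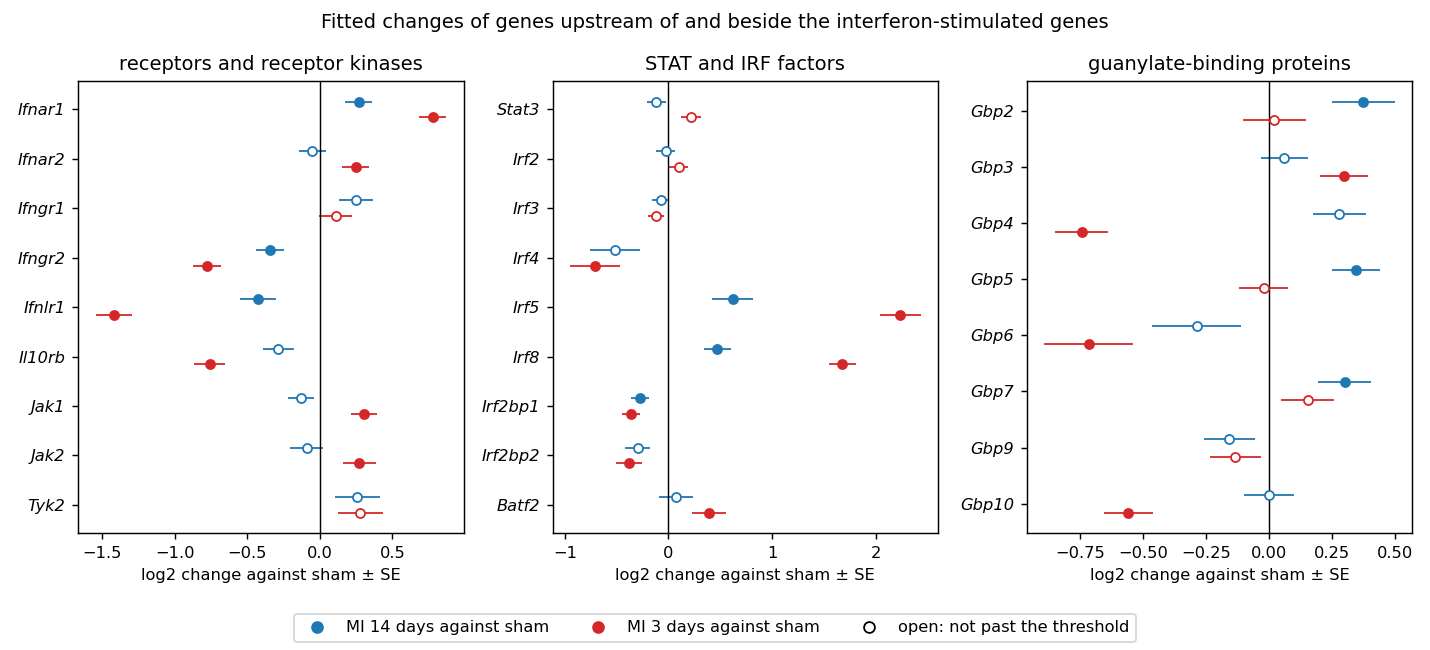
Fitted log2 change against sham with its SE at MI 14 days (blue) and MI 3 days (red) for receptor genes, further STAT and IRF genes, and the guanylate-binding proteins with Gbp2 and Gbp3 of the list, open where not past the threshold. Ifnar1 lies to the right and Ifnlr1, Ifngr2 and Il10rb to the left, Irf5 and Irf8 lead the factors, and Gbp4, Gbp6 and Gbp10 are lower at MI 3 days.

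Upstream of interferon production, 13 of 23 genes of nucleic acid sensing were higher and 1 lower at MI 3 days, and 7 were higher and 3 lower at MI 14 days (median changes 0.68 at MI 3 days and 0.18 at MI 14 days). Over all named genes 29.8% were higher at MI 3 days and 15.9% at MI 14 days, with medians of -0.15 and -0.08. The DNA-sensing pair Cgas (1.81 ± 0.14) and Sting1 (1.92 ± 0.14) rose at MI 3 days, and at MI 14 days Sting1 was still higher (0.72 ± 0.14) while Cgas was not past the threshold (0.17). Tlr8 was at least 1.70-fold and Aim2 at least 1.40-fold higher at MI 3 days, both being dim in sham. Unc93b1, the chaperone of endosomal Toll-like receptors, was higher by 0.69 ± 0.15 at MI 14 days and 1.61 ± 0.15 at MI 3 days. Mavs, the mitochondrial adaptor through which RIG-I and MDA5 signal, was lower (-0.68 ± 0.11 at MI 14 days and -1.35 ± 0.11 at MI 3 days). Its sensors Ifih1 and, by the brighter probe only, Ddx58 were higher at MI 3 days.

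Of 12 negative regulators 7 were higher and 4 lower at MI 3 days, and 4 were higher and 3 lower at MI 14 days. Of all named genes 29.8% were higher and 40.5% lower at MI 3 days, and 15.9% higher and 24.2% lower at MI 14 days. The share of lower regulators was near these. Ptpn6, the phosphatase SHP-1 of blood cells (0.83 ± 0.12 at MI 14 days and 2.66 ± 0.12 at MI 3 days), and Socs3 (2.44 ± 0.30 at MI 3 days) rose most, Socs1 was higher at both times (0.77 ± 0.16 and 1.25 ± 0.16 in that order), and Nlrx1, which restrains MAVS, was lower (-0.67 and -1.27). Of 35 further interferon-stimulated genes tested 21 were higher and 3 lower at MI 3 days, led by Slfn8 (1.77 ± 0.16) and Lgals3bp (1.41 ± 0.15), with Epsti1 at least 1.72-fold higher. At MI 14 days 10 were higher and 3 lower, led by Ifit3b (0.75 ± 0.16) and Slfn8 (0.70 ± 0.16), while Nampt, which makes a precursor of NAD, was lower (-0.93, and -1.41 at MI 3 days). Counted by its brighter probe, Pml is among the lower genes at both times (-0.49 at MI 14 days and -0.67 at MI 3 days), but its second probe was called higher (0.49 and 0.48 in that order), so no direction is given for it.

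Genes known for interferon-gamma induction gave 11 higher and none lower of 27 tested at MI 14 days, a median of 0.29, where 15.9% of all named genes were higher. At MI 3 days 10 were higher and 3 lower, a median of 0.15, a share of higher genes near the 29.8% of all named genes. The T-cell chemokine gene Cxcl10 stood out with 1.72 ± 0.28 at MI 14 days and 4.34 ± 0.28 at MI 3 days, the immunoproteasome gene Psmb8 had 0.36 ± 0.12 and 1.37 ± 0.12 in that order, and Nlrc5, the activator of MHC class I genes, 0.60 ± 0.14 and 1.37 ± 0.14. Lower at MI 3 days were Gbp4 (-0.74 ± 0.11), Gbp6 (-0.72 ± 0.18) and Gbp10 (-0.56 ± 0.10), where Gbp2 had 0.02 and Gbp3 0.30. Between the MI groups the family was mixed. Gbp2, Gbp4, Gbp5, Gbp6 and Gbp10 were higher at MI 14 days than at MI 3 days, by 0.35, 1.02, 0.37, 0.43 and 0.56, Gbp3 was lower (-0.24, adjusted p = 0.0372), and Gbp7 (0.15) and Gbp9 (-0.02) were not past the threshold. Gbp5, Gbp7 and Gbp9 were named after their values were seen. The MHC class II gene H2-Eb1 and its chaperone Cd74 were higher by 0.76 and 0.86 at MI 14 days.

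Markers of cell types changed in differing directions. For all named genes the shares were 29.8% higher and 40.5% lower at MI 3 days, and 15.9% and 24.2% at MI 14 days. Of 8 monocyte and macrophage genes tested 7 were higher and 1 lower at MI 3 days and 4 higher at MI 14 days, and of 7 neutrophil genes 5 were higher and 1 lower at MI 3 days and none at MI 14 days. All 5 genes of dividing cells were higher at MI 3 days, and all 6 cardiomyocyte genes were lower there and 2 at MI 14 days. Of 6 fibroblast genes all were higher at MI 14 days (median change 1.52), and 4 were higher and 1, Dcn, lower at MI 3 days. Their summed level, as multiples of the 75th percentile, was 972.3 to 1399 at MI 14 days, 683.8 to 949 at MI 3 days and 392.7 to 413 in sham, so that both MI groups lay above all sham arrays. Summed in the same way, macrophage markers ranged over 194.3 to 223.2 at MI 14 days, 176.3 to 226.2 at MI 3 days and 170.1 to 225.6 in sham, a sum carried by Itgam and Csf1r, and the probes of Itgam were called both ways (2.50 and -0.99 at MI 3 days). Cardiomyocyte markers summed to 4591 to 6341 at MI 14 days, 2726 to 3370 at MI 3 days and 4358 to 5677 in sham. Neutrophil markers summed to 214.0 to 238.5, 191.7 to 272.0 and 208.1 to 228.0 in the same order, and those of dividing cells to 1.69 to 4.56, 23.5 to 31.9 and 0.926 to 2.30. A sum is weighted to its brightest genes, for neutrophils Csf3r and S100a9. The median change of the 7 neutrophil genes was 3.43 at MI 3 days and 0.03 at MI 14 days. Of 5 genes of plasmacytoid dendritic cells, the classic interferon producers, 1 was higher and 1 lower at MI 3 days, and 1 was higher at MI 14 days. Siglech was not past the threshold at MI 3 days, and Cox6a2 had the highest mean level of this list. The list summed to 497.9 to 1481 at MI 14 days, 608.2 to 739.7 at MI 3 days and 1247 to 1507 in sham. Like the cardiomyocyte sum, it was lower on all MI 3 days arrays than on all sham arrays. Whether its genes mark plasmacytoid dendritic cells in ventricle was not tested, so no change of these cells is read from them. Of the tested genes of T and NK cells (5), B cells (5) and endothelial cells (6), 1 of each list was higher at MI 3 days and 2, 1 and 2 were lower. Probes of Nkg7, on the T and NK cell list, were called both ways at MI 3 days (0.98 and -0.29). The part of these cells in the changes of the 35 genes was not tested.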

How the data were processed

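The values deposited by the authors are 1 linear Cy3 intensity per probe and array, not scaled between arrays. For 10 of the 14 arrays scanner output of Agilent Feature Extraction 10.7.3.1 was used too, per the file headers, and 99.6% to 99.8% of probes had the same intensity there (tolerance 0.001). The submitters' processing notes list limma and give no role for it. Here log2 intensity minus each array's 75th percentile was taken and 1 model for all 3 groups was fitted in limma 3.58.1 under R 4.3.3 (lmFit and eBayes, two-sided).

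Tested were the 32256 of 55482 probes that all scanner arrays of some group showed well above background, and p was adjusted by Benjamini-Hochberg over these. Probes were named through their RefSeq accession (27157 probes), the gene name column not being in the files used, and the tested probe with the highest mean level stood for a gene. A gene above background on no scanner array of a group has its fold as a lower bound, the bright group's mean over a floor. On each array that floor is the probe's own signal or, where higher, the lowest signal of any probe well above background. The normexp alternative used the median signal, since no mean signal column was given.

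Results for some genes are not reported here. Members and lists were chosen with earlier results of these data known. Every member is named, and of each pathway list the interferon and receptor genes and up to 3 genes with the largest change in each direction and comparison. On simulated data with 200 of 32256 probes changed, the fit for MI 3 days against sham called 152 changed by a log2 of 1 and 40 changed by 0.5. In the data themselves 8218 probes were called higher and 12820 lower in this comparison. The adjusted p depends on how many probes change, so the simulated shares do not carry over to these data. The number of arrays limits the precision.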

Additional observations from a re-analysis of the deposited data

Results flagged for a closer look

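Of 105 sets of arrays (35 genes in 3 groups), 9 held an array far from the others by Dixon's test, where chance flags about 1 in 20. MI 3 days replicate 3 was the far array, above the others, in 5 of them: Oas1a at 4.171 (others 3.56 to 3.72), Oas3 at -1.029 (others -2.08 to -2.01), Trim25 at 4.665 (others 4.01 to 4.18), Irf7 at 0.808 (others 0.21 to 0.31) and Ifi35 at 1.999 (others 1.72 to 1.80). In the same group replicate 5 lay low for Usp18 at 0.988 (others 1.14 to 1.20). MI 14 days replicate 5 lay low for Parp9 at 0.943 (others 1.32 to 1.46) and for Rsad2 at 1.149 (others 1.58 to 1.72). Sham replicate 4 lay low for Gbp3 at 1.349 (others 1.54 to 1.58).

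By the brightest tested probe of each gene, the change from sham differed between the MI times for 25 genes, tested as MI 14 days against MI 3 days. Of these, 24 were lower at MI 14 days and 1, Gbp2, was higher. A second probe of Xaf1, among the 24, was called higher (0.56 ± 0.23). Of all named genes 26.9% were lower and 33.6% higher.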

How the results depend on the processing

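No gene of the list was lower than sham in either MI group under any alternative. At MI 3 days 22 to 31 of the 35 genes were higher under every alternative, and 29 to 30 when 1 array was left out. At MI 14 days the count was 13 to 24 when 1 array was left out, the 13 being without sham replicate 2, and 4 on the 10 scanner arrays with slide as a block. It was 14 with no filter on dim probes, 16 with scaling to the median, 14 with normexp, 16 with 2 groups in the fit and 24 with the percentile over tested probes. For MI 14 days against MI 3 days, 19 to 25 genes were lower and 0 to 1 higher when 1 array was left out. With the slide as a block 12 were lower. The 1 higher gene, Gbp2, became 0 with scaling to the median, on the 10 scanner arrays, with normexp and with the slide block. The cause was not tested, but these fits hold fewer arrays, scaling aside.

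The replicate block gave 30 higher at MI 3 days, 23 higher at MI 14 days, and 23 lower and 1 higher between the times. Same-numbered arrays correlated at -0.136 to 0.225 and 6 of 14 arrays correlated best with their own number, so the numbers are not taken as pairs.

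Changes that turned sign were near 0 apart from Oas3, Xaf1 and Parp14. When 1 array was left out, Oas3 (-0.706 to 0.845) and Ifitm1 (-0.099 to 0.072) at MI 14 days, Gbp2 at MI 3 days (-0.010 to 0.089), and Trim25 (-0.114 to 0.050), Parp14 (-0.022 to 0.142) and Ifi44 (-0.206 to 0.074) between the times turned in some fits. With the mean of all probes Xaf1 between the times was 0.081, and Pml at MI 14 days 0.000. With scaling to the median, Irf1 (-0.052) and Parp14 (-0.132) between the times and Ifitm1 (-0.015) at MI 14 days turned. With normexp, Trim25 (0.057) and Parp14 (-0.096) between the times and Ifitm1 (-0.020) and Rsad2 (-0.016) at MI 14 days did so. On the 10 scanner arrays Parp14 was -0.024. With the slide block Trim25 was 0.053, Ifitm1 -0.012, and Ifi35 -0.005 and Ifngr1 -0.015 at MI 3 days. With 16 units added Ifitm1 was -0.000. Across scalings the median change of all named genes was -0.15 to 0.03 at MI 3 days, -0.10 to 0.00 at MI 14 days and -0.12 to 0.12 between the times. The longer ISRE letters, with a C added after the last GAAA, occurred in 11 of the 31 promoters and in 0.819% of all promoters.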
